A study of Mus musculus with 6 samples.

Results

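Aminoacyl-tRNA synthetases, the enzymes that load each tRNA with its amino acid, were described in the jejunum of wild type mice and of mice lacking both Ifrd1 (TIS7) and Ifrd2 (SKMc15). The members were 36 named genes: 20 for the cytosolic enzymes and 16, with names ending in 2, for the mitochondrial ones. A probe set counted as a member when the platform annotation gave it exactly 1 gene and that gene was on the list, and where a gene had several, the one with the highest mean of its 6 values was used. In this way 35 of the 36 genes were found, and Dars, which no probe set named alone, is not analysed here. Of the 35, 31 were bright enough to be tested (a log2 value over 4 on at least 3 of the 6 arrays): all 19 cytosolic genes found and 12 of 16 mitochondrial genes. They are 31 of 9673 genes tested.

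The 6 male mice, on a C57BL/6 background, were 7 to 10 weeks old and housed singly, and all received the same diet, with 42% of its energy from milk fat and 0.2% from cholesterol. The wild type group was mice 1, 3 and 4, and the double knockout group was mice 1, 2 and 3, each measured on 1 Affymetrix whole-genome mouse array of jejunal RNA. Each array is a separate mouse by its label. The labels give 3 to 8 weeks of diet for the study and 3 weeks for the animals whose tissue was taken. The knockout alleles, and whether the mice were littermates, are not stated in the labels, and no group on a control diet was measured, so the comparison is of genotypes under a high-fat diet only.

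In animals most synthetases have separate nuclear genes for the cytosol and for the mitochondrial matrix, while the genes for the glycyl and lysyl enzymes, Gars and Kars, each serve both compartments. Several cytosolic synthetases are held together with scaffold proteins in the multi-synthetase complex, and others act alone or with the elongation factor that carries charged tRNA to the ribosome. Transcription of many cytosolic synthetases is known to rise when the factor ATF4 is induced by amino acid shortage, and growth-linked factors such as Myc are also known to act on them.

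The labels held on the arrays. Ifrd1 lay between 9.84 and 10.00 on the log2 scale in wild type mice and between 4.80 and 6.27 in double knockout mice, and Ifrd2 between 8.20 and 8.61 against 2.59 to 2.74. All 11 enterocyte markers found were bright, with mean levels over the list of 12.97 to 13.12 on each array. They leaned lower in the double knockout, by small amounts: 0 passed by limma, 2 were lower (Apob and Lct, named after their values were seen) and 0 higher by unadjusted p, 9 of 11 fold changes were negative, and in 7 of 11 every double knockout value lay below every wild type value, against 14.2% of all genes. Relative to wild type, their mean level was -0.03, -0.14 and -0.13 in double knockout mice 1, 2 and 3 and -0.02 to 0.02 in wild type mice. The ileal genes Fabp6 and Slc10a2 were below the minimum, with group means of at most 2.41. The cycling cell markers were higher in the double knockout, with 5 of 12 passing (41.7%) and 0 lower, against 3.17% and 1.60% of all genes. The number of these markers passing was also 5 without double knockout mouse 2, and 0 without any other mouse. Over all 18013 probe sets, 458 were higher with every mouse and 196 without double knockout mouse 2. Without any other mouse it was 11 to 103. Their mean level lay 0.50 to 0.66 above the wild type mean in the 3 double knockout mice, against -0.03 to 0.02 in wild type mice. Fibroblast markers (10 tested by limma, 0 passing, 3 higher and 0 lower by unadjusted p) lay at 0.18 to 0.67 against -0.41 to 0.21. By unadjusted p, 17.6% of all genes were higher and 10.4% lower. The 3′ minus 5′ signal of control transcripts, a measure of RNA quality, was 0.35, 0.49 and 0.36 in wild type mice 1, 3 and 4. In double knockout mice 1, 2 and 3 it was 0.60, 0.41 and 0.61. The groups overlapped through double knockout mouse 2 alone, and double knockout mice 1 and 3 lay above every wild type mouse. A piece of jejunum holds many cell types, and a different number of cells of one type cannot be told apart from a different amount of RNA per cell.

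Expression of synthetases was shifted upward in double knockout jejunum, mostly by small amounts. Of the 31 genes tested, 4 rose and 0 fell by limma (adjusted p up to 0.05): the cytosolic genes Farsa and Vars and the mitochondrial genes Iars2 and Yars2. This is 12.9% of the members, where 3.17% of all genes tested were called higher and 1.60% lower. The fold change was positive for 29 of 31 members (93.5%), against 58.1% of all genes. In 16 members (51.6%) every double knockout value lay above every wild type value, which was so for 22.5% of all genes, and the reverse order was seen in 0 members against 14.2% of all genes. At an unadjusted p of at most 0.05, 13 members (41.9%) were higher and 0 lower, against 17.6% and 10.4% of all genes. All 31 members lay above the minimum of 4 on every array, so none entered the test through 1 group alone.

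The median log2 fold change was 0.22 over the 19 cytosolic genes and 0.13 over the 12 mitochondrial genes, beside 0.05 over all genes tested. The mean cytosolic level, taken relative to the wild type mean of each gene, was -0.08, 0.06 and 0.02 in wild type mice 1, 3 and 4 and 0.29, 0.24 and 0.32 in double knockout mice 1, 2 and 3. The mitochondrial means were -0.10, 0.05 and 0.04 against 0.18, 0.19 and 0.27. In both compartments the lowest double knockout mouse stood above the highest wild type mouse, and wild type mouse 1 was the lowest. No difference between the compartments was tested. Cycling cell markers, enterocyte markers (downward) and the 3′ minus 5′ signal moved with these values, as given above, and their part in the shift was not tested.

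**Figure D1:**
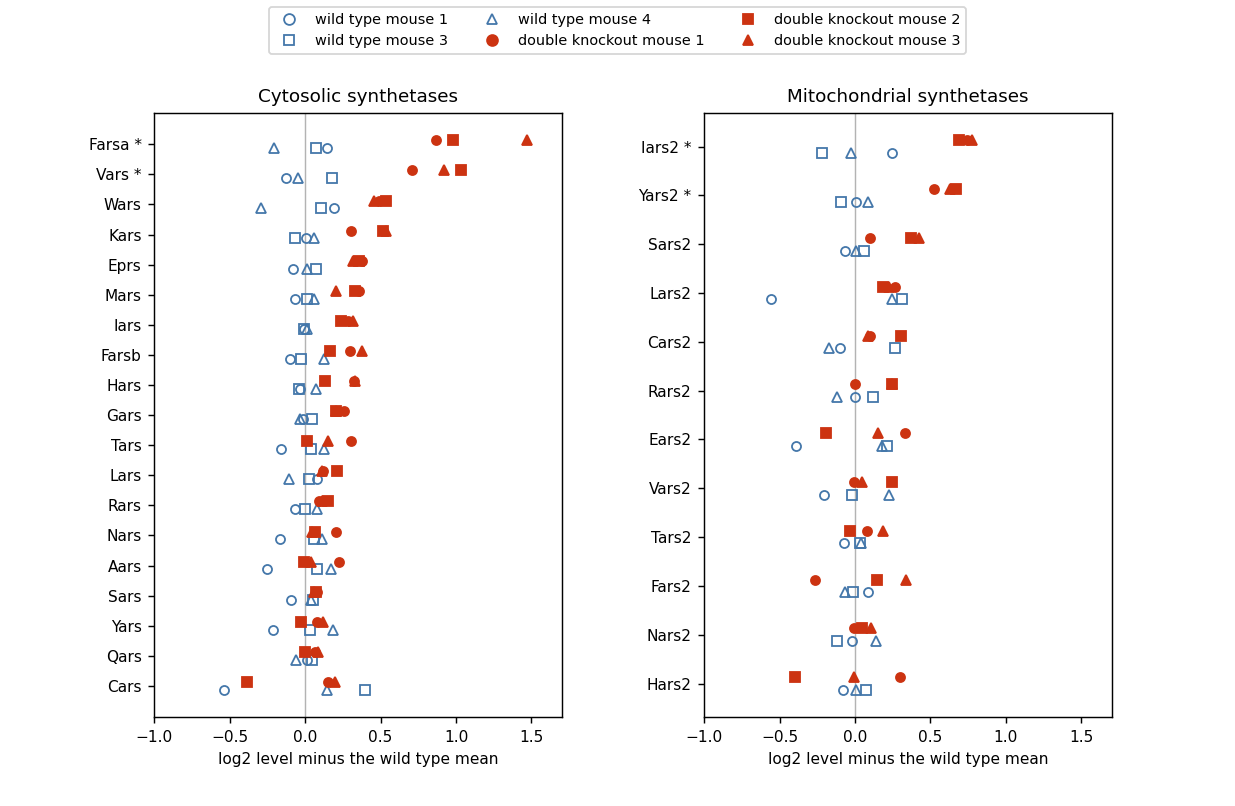
Log2 level of each tested synthetase minus its wild type mean, for cytosolic genes (left) and mitochondrial genes (right), with 1 point per mouse, blue for wild type and red for double knockout, and an asterisk for a limma adjusted p of at most 0.05. The 4 marked genes have all 3 red points to the right of all blue points, while Cars, Ears2, Fars2 and Hars2 have red and blue points intermixed.

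Farsa encodes the catalytic subunit of phenylalanyl-tRNA synthetase, an enzyme built from 2 kinds of subunit. Its log2 level was 6.01, 5.94 and 5.66 in wild type mice 1, 3 and 4 and 6.73, 6.85 and 7.34 in double knockout mice 1, 2 and 3. The groups did not overlap, and double knockout mouse 3 was the highest. The log2 fold change was 1.10 ± 0.18 (SE, n = 3 per group, 2.15-fold, limma adjusted p = 0.0308). The partner subunit gene, Farsb, showed a smaller difference that did not pass, 0.28 ± 0.10 on its brightest probe set (adjusted p = 0.147 by limma). Its other probe sets above the minimum gave 0.53 and 0.43, and on each of the 3 every double knockout mouse was above every wild type mouse.

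Vars encodes the cytosolic valyl-tRNA synthetase, which associates with the elongation factor complex that delivers charged tRNA. It measured 5.68, 5.99 and 5.77 in wild type mice and 6.52, 6.85 and 6.73 in double knockout mice. The lowest double knockout value was well clear of the highest wild type value, and the log2 fold change was 0.89 ± 0.13 (SE, n = 3 per group, 1.85-fold, limma adjusted p = 0.0251). The mitochondrial counterpart, Vars2, stood at 0.09 ± 0.14 with overlapping groups.

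Among the mitochondrial enzymes, Iars2, the isoleucyl-tRNA synthetase of the matrix, was 7.63, 7.17 and 7.36 in wild type mice 1, 3 and 4 and 8.13, 8.07 and 8.16 in double knockout mice 1, 2 and 3. The double knockout mice were nearly alike and the wild type mice were more spread. The log2 fold change was 0.73 ± 0.13 (SE, n = 3 per group, 1.66-fold, limma adjusted p = 0.0347). Yars2, the tyrosyl enzyme of the matrix, was 6.27, 6.17 and 6.35 against 6.79, 6.93 and 6.89, again without overlap. Its log2 fold change was 0.61 ± 0.09 (SE, n = 3 per group, 1.52-fold, limma adjusted p = 0.0263). A dimmer probe set of Yars2 gave 0.20 ± 0.13 and did not pass, so the size of the Yars2 difference depends on the probe set.

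These calls rest on all 6 arrays. Over all 18013 probe sets, 458 were higher with every mouse included. Without wild type mouse 1, 3 or 4 the number was 27, 26 and 11. Without double knockout mouse 1, 2 or 3 it was 103, 196 and 22. Vars passed without double knockout mouse 1 or 2 (limma adjusted p of 0.0455 and 0.0496) and in none of the other 4 fits that left out 1 mouse, while Farsa, Iars2 and Yars2 passed in none of the 6, with adjusted p-values between 0.0518 and 0.124. Across those fits the fold changes stayed between 0.92 and 1.22 for Farsa, 0.81 and 0.98 for Vars, 0.62 and 0.86 for Iars2 and 0.56 and 0.65 for Yars2. With the 3′ minus 5′ signal as a covariate the log2 fold changes of Farsa, Vars, Iars2 and Yars2 were 0.98, 0.90, 0.82 and 0.69 and none of these passed (limma adjusted p between 0.134 and 0.199).

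The enzymes of the multi-synthetase complex were measured by 7 genes, and 0 of these passed in either direction. At an unadjusted p of at most 0.05, 4 were higher and 0 lower, against 17.6% and 10.4% of all genes. All 7 fold changes were positive (median 0.28), and in 6 of 7 the double knockout mice were all above the wild type mice. Of all genes, 58.1% had positive fold changes and 22.5% had this order of mice. Among the 12 cytosolic genes outside the complex, 11 were positive and 7 had this order. Genes in and outside the complex were not compared by a test. Kars, the lysyl enzyme, was 8.62, 8.55 and 8.68 in wild type mice and 8.92, 9.13 and 9.15 in double knockout mice, which put the log2 fold change at 0.45 ± 0.10 (SE, limma adjusted p = 0.0532). Eprs, a fusion of the glutamyl and prolyl enzymes, was 8.83, 8.98 and 8.92 against 9.29, 9.27 and 9.23, or 0.35 ± 0.08 with a limma adjusted p of 0.0619. Both groups were tight for Eprs, and both genes narrowly missed the threshold.

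The other complex members had smaller fold changes. Mars and Iars, the methionyl and isoleucyl enzymes, stood at 0.30 ± 0.09 and 0.28 ± 0.08 on the log2 scale, with groups that did not overlap. Lars and Rars, the leucyl and arginyl enzymes, stood at 0.15 ± 0.09 and 0.12 ± 0.08. Qars, the glutaminyl enzyme, stood at 0.05 ± 0.08 with overlapping groups and a 95% interval from -0.14 to 0.24. The interval of Kars ran from 0.22 to 0.68, and differences between members were not tested. Qars is carried on chromosome 9 with Ifrd2, with 37 protein-coding genes between them in the mouse gene table, and Lars2 is on the same chromosome, 218 genes away. Wars is on chromosome 12 with Ifrd1, 419 genes away. None of these 3 members passed.

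Of the 12 cytosolic genes outside the complex, Farsa and Vars rose, 0 fell and 10 did not pass (median log2 fold change 0.19). Wars, the tryptophanyl enzyme and a known interferon-gamma target, gave 0.49 ± 0.14 (limma adjusted p = 0.0879), from 7.17, 7.09 and 6.69 in wild type mice to 7.47, 7.51 and 7.43 in double knockout mice. Its 3 probe sets above the minimum gave between 0.33 and 0.51, each with separated groups. Hars and Gars, the histidyl and glycyl enzymes, stood at 0.26 ± 0.09 and 0.22 ± 0.08 with separated groups. Tars, Nars, Aars, Sars and Yars lay between 0.06 and 0.16, and Cars, the cysteinyl enzyme, at -0.01 ± 0.27. Cars also had the largest standard error of the cytosolic genes, with 4.83, 5.76 and 5.51 in wild type and 5.52, 4.98 and 5.57 in double knockout mice, and its 95% interval ran from -0.66 to 0.63.

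**Figure D2:**
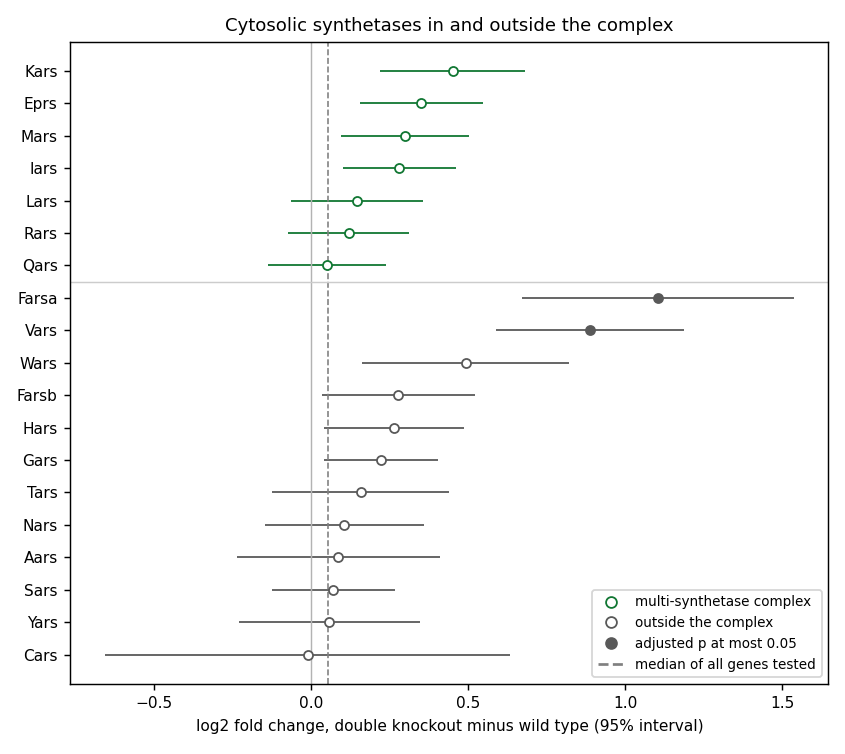
Log2 fold change of the 19 cytosolic synthetases (point) with its 95% interval from limma (bar), double knockout minus wild type, n = 3 per group, green for the 7 genes of the multi-synthetase complex and grey for the 12 others. Filled points mark Farsa and Vars, which passed, and the dashed line is the median of all genes tested, 0.05.

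The structural classes of synthetase differ in the fold of the catalytic domain. Of the 9 class I genes, 1 rose (Vars) and the median was 0.15, and of the 9 class II genes, 1 rose (Farsa) and the median was 0.22. Eprs holds a domain of each class and was left out of this grouping.

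Beyond Iars2 and Yars2, the 10 other mitochondrial genes tested did not pass and lay between -0.03 and 0.30. Sars2, the seryl enzyme, was the next, at 0.30 ± 0.11 (limma adjusted p = 0.151), from 4.41, 4.54 and 4.48 to 4.57, 4.85 and 4.90, close to the lower end of the measured range. Rars2, the arginyl enzyme, stood at 0.16 ± 0.11, with an adjusted p of 0.384 by limma. Lars2, the leucyl enzyme, was 7.32 in wild type mouse 1 and 8.07 to 8.19 on the other 5 arrays, so its fold change of 0.23 ± 0.23 rests on 1 low wild type value. Hars2, the histidyl enzyme, was lowest at -0.03 ± 0.18. Aars2, Mars2, Pars2 and Wars2 were below the minimum, with group means between 2.75 and 3.87, and were not tested.

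The genes that passed can be set beside the gene for the same amino acid in the other compartment. The pairs were Farsa at 1.10 with Fars2 at 0.07, Vars at 0.89 with Vars2 at 0.09, Iars at 0.28 with Iars2 at 0.73, and Yars at 0.06 with Yars2 at 0.61. In each of these 4 pairs 1 partner passed and the other did not; differences within pairs were not tested, and the pairs were chosen because they hold the genes that passed. For the quieter partners the limma intervals were -0.31 to 0.46 for Fars2 and 0.10 to 0.46 for Iars. Those of Vars2 and Yars were -0.23 to 0.42 and -0.23 to 0.35. Vars2, at 4.63 to 5.08 over all arrays, and Yars, at 4.34 to 4.74, lay close to the lower end of the measured range. Low levels hold little information, so the intervals of Vars2 and Yars may not bound the change in their RNA.

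For 13 members more than 1 probe set was above the minimum. For 10 of them all probe sets had fold changes of the same sign, and for Fars2, Nars and Qars the sign differed between probe sets that did not pass. For Yars2, as given above, and for Eprs 1 probe set passed and the others did not. On 1 of its dimmer probe sets the values were 7.97, 7.90 and 7.88 in wild type mice and 8.52, 8.64 and 8.56 in double knockout mice, a rise of 0.65 ± 0.08 (limma adjusted p = 0.0186), while the third stayed at 0.11 ± 0.12. A further probe set, annotated to both Aars and Exosc6, rose by 0.75 ± 0.14 (limma adjusted p = 0.0424). It is not a member because it names 2 genes, and the probe sets of Aars alone gave 0.09 and 0.17 without passing.

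**Figure D3:**
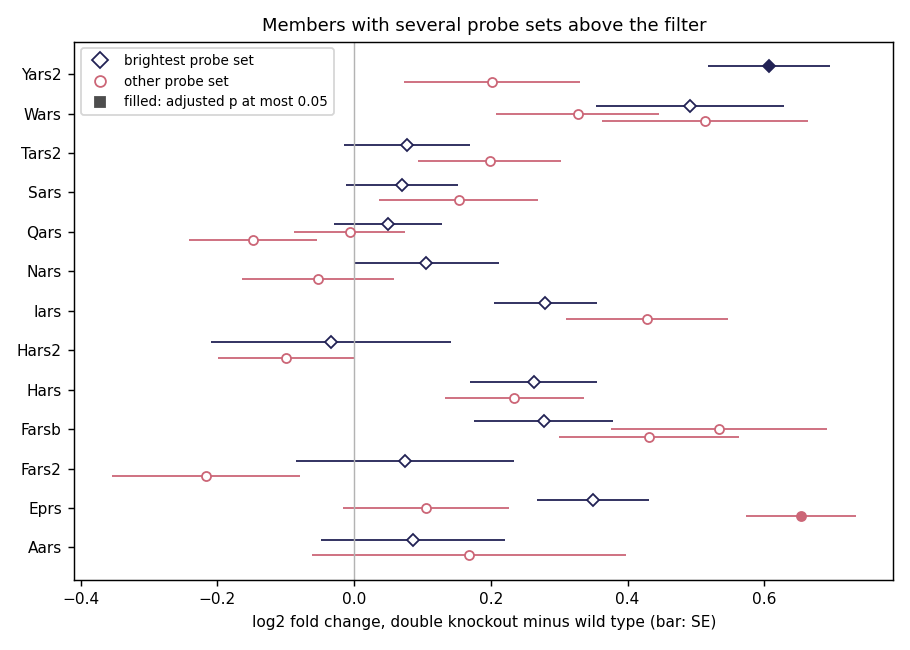
Log2 fold change (point) and its limma SE (bar) of every probe set above the minimum for the 13 members that have more than 1, with diamonds for the brightest probe set of a gene and filled symbols for those that passed. The Eprs probe sets run from 0.11 to 0.65, and those of Iars, Farsb, Hars and Wars lie wholly to the right of 0.

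Upstream sequence was examined because members shifted together and because both ATF4 and Myc are known regulators of synthetase genes. RefSeq promoters of the GRCm38.p6 assembly were present for 26 of the 35 members, and the 250 bases before each start were searched on both strands for TGATGNAA, the core of the C/EBP-ATF response element, and CACGTG, the E-box that Myc and related factors bind. The motifs share no position in these windows. TGATGNAA was found in 3 of 12 cytosolic and 0 of 15 mitochondrial windows, against 3.45% of 32851 windows of all genes. CACGTG was likewise found in 3 of 12 and 0 of 15, against 6.02% of all windows. The genes with TGATGNAA were Aars, Gars and Tars and those with CACGTG were Aars, Farsb and Iars. None of these 5 genes passed the test, and the 3 genes that passed and have an entry, Farsa, Iars2 and Yars2, held neither motif in the window. Vars, which also passed, had no entry. Both motifs are rare over all windows, so absence from 3 windows cannot show whether either factor acts on these genes, which was not tested. The windows of Farsa, Iars2 and Yars2 and of the 3 genes with TGATGNAA are shown 5′ to 3′ in the direction of the gene, from RefSeq GRCm38.p6, with capitals for either motif.
Farsa, chr8:84856736-84856985, plus strand: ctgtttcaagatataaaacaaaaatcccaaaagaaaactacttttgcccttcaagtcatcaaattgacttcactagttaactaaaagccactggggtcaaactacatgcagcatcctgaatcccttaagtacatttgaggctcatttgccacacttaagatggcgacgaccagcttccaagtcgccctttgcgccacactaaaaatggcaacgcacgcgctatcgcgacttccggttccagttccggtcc
Iars2, chr1:185329402-185329651, minus strand: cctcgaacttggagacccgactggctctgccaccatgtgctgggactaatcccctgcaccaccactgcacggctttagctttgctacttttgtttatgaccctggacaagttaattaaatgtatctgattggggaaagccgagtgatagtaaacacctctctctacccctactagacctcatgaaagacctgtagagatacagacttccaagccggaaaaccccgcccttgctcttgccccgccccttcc
Yars2, chr16:16302715-16302964, plus strand: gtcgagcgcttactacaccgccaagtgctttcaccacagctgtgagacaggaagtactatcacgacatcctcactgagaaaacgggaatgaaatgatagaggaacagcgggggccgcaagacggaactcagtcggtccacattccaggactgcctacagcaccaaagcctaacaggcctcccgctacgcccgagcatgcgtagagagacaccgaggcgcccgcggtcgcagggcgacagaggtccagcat
Aars, chr8:111033592-111033841, plus strand: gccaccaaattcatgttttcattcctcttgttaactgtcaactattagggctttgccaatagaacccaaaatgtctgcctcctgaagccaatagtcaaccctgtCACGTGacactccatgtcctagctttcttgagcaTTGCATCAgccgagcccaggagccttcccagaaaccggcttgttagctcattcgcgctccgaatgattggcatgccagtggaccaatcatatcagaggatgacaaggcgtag
Gars, chr6:55037751-55038000, plus strand: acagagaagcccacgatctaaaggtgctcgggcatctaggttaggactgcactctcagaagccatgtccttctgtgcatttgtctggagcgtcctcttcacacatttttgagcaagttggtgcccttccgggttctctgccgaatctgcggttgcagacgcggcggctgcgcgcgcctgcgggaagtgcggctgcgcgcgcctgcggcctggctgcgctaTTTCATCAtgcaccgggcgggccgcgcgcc
Tars, chr15:11399659-11399908, minus strand: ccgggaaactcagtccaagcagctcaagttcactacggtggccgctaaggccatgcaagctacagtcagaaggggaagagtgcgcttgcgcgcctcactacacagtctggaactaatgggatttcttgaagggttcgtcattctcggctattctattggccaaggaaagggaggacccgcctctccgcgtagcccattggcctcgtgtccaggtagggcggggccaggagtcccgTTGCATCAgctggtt

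In these windows TGATGNAA starts 112 bases before the start of Aars, 30 before that of Gars and 15 before that of Tars, and CACGTG starts 146 bases before that of Aars. The fold changes of Aars, Gars and Tars were 0.09, 0.22 and 0.16 on the log2 scale. Iars2 and Eprs are close neighbours on chromosome 1, with 1 protein-coding gene between them, and are transcribed from opposite strands.

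Proteins that work with the synthetases were measured by 12 genes, of which 2 rose and 1 fell (median log2 fold change 0.26). These are 16.7% and 8.33%, against 3.17% and 1.60% of all genes. Eef1e1, a scaffold of the multi-synthetase complex, averaged 8.53 ± 0.073 (SD, n = 3) in wild type mice and 9.12 ± 0.11 (SD, n = 3) in double knockout mice, with no overlap, a rise of 0.59 ± 0.09 (limma adjusted p = 0.0295). The other scaffolds, Aimp1 and Aimp2, stood at 0.33 ± 0.09 and 0.26 ± 0.10 and did not pass. Aarsd1, related to the domain that removes wrongly attached amino acids from alanine tRNA, rose by 0.83 ± 0.12 (limma adjusted p = 0.0261). Mtfmt, which formylates the initiator methionyl-tRNA of mitochondria, fell from 7.02, 6.82 and 7.15 to 5.99, 6.11 and 6.49 (log2 fold change -0.80 ± 0.16, limma adjusted p = 0.0440), and lies on chromosome 9 with Ifrd2.

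Genes of tRNA processing and modification had a median of 0.31 over 47 genes, of which 8 rose (17.0%), 1 fell (2.13%) and 38 did not pass. Of all genes, 3.17% rose and 1.60% fell. Rpp30, a subunit of the ribonuclease that trims the 5′ end of tRNA precursors, rose by 0.86 ± 0.10, Elp6, a subunit of the Elongator complex that modifies the wobble base, by 0.96 ± 0.12, and Elac2, which trims the 3′ end, by 0.52 ± 0.09. Adat2, a subunit of the wobble adenosine deaminase, had a log2 fold change of -0.90 ± 0.15. Limma adjusted p-values of Rpp30, Elp6, Elac2 and Adat2 were 0.0172, 0.0175, 0.0344 and 0.0308. Elp6 is another gene of chromosome 9. Without double knockout mouse 1 or 2 the number of these genes that rose was 4 and 3, and without any other mouse it was 0. That of the synthetase partners was 1, 2 and 0 in the same order, and 0 fell in either list. Calls over all probe sets also fell without 1 mouse, as given above. Elongation factors, of which some deliver charged tRNA and others move or recycle the ribosome, listed with the tRNA exporter gene Xpot, had positive fold changes for 10 of 10 genes (median 0.16) but 0 passed, with 4 higher and 0 lower at an unadjusted p of at most 0.05; Gfm1, a mitochondrial translocation factor, stood at 0.43 ± 0.09 and Eef1d, an exchange factor subunit, at 0.35 ± 0.08 (limma adjusted p of 0.0522 and 0.0661). RNA polymerase III, which transcribes tRNA genes, had 0 of 19 genes passing, a median of 0.06, and 3 higher and 1 lower by unadjusted p. Its genes with the smallest p were Crcp at 0.39 ± 0.13 and Polr3e at 0.36 ± 0.13. Beside these elongation factor and polymerase counts, 17.6% of all genes were higher and 10.4% lower by unadjusted p. Fold changes were positive for 58.1% of all genes.

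Targets of ATF4 in the amino acid response lay on both sides of 0. Of 28 tested, 2 rose and 0 fell, with 16 positive and 12 negative fold changes and a median of 0.12. By unadjusted p 7 were higher and 1 lower, and in 7 of 28 every double knockout value lay above every wild type value, with 0 in the reverse order. Of all genes, 3.17% rose and 1.60% fell, 58.1% had positive fold changes, and 17.6% were higher and 10.4% lower by unadjusted p. The groups were separated upward in 22.5% of all genes and downward in 14.2%. The shares of positive and of upward separated targets were thus near those of all genes. Mthfd2, a folate enzyme of mitochondria, rose by 1.14 ± 0.23 (limma adjusted p = 0.0464). Slc7a5, the large neutral amino acid transporter, is the other of the 2 that rose, at an adjusted p of 0.0257 by limma. Its wild type values lay below the minimum of 4, so it entered the test through the double knockout arrays alone. Its p-value is thus no independent support. Measured against that minimum Slc7a5 was at least 1.71-fold higher. The next by p were enzymes of serine and glycine synthesis, Phgdh at 0.99 ± 0.22, Psat1 at 0.77 ± 0.17 and Shmt2 at 0.78 ± 0.17, which did not pass (limma adjusted p of 0.0552, 0.0569 and 0.0570). The glutamine transporter gene Slc1a5 stood at 1.02 ± 0.38 without passing, with separated groups. It was 7.57, 7.07 and 5.96 in wild type mice 1, 3 and 4 and 7.86, 7.93 and 7.88 in double knockout mice. The size of its difference thus leans on the low value of wild type mouse 4. Atf4 itself stood at 0.15 ± 0.13, and the targets Asns, Trib3 and Ddit3 at -0.28 ± 0.19, -0.42 ± 0.22 and -0.18 ± 0.15, none of which passed; these 8 were named after their values were seen. Without double knockout mouse 2 or wild type mouse 1 the count of targets that rose was 1, and without any other mouse it was 0. Calls over all probe sets fell in these fits too. Interferon-gamma targets, measured because Wars is one, had 0 of 16 genes passing, with Irf8 at 0.53 ± 0.13 and Nlrc5 at 0.89 ± 0.22. By unadjusted p 4 of the 16 were higher and 0 lower, beside the shares of all genes given above.

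**Figure D4:**
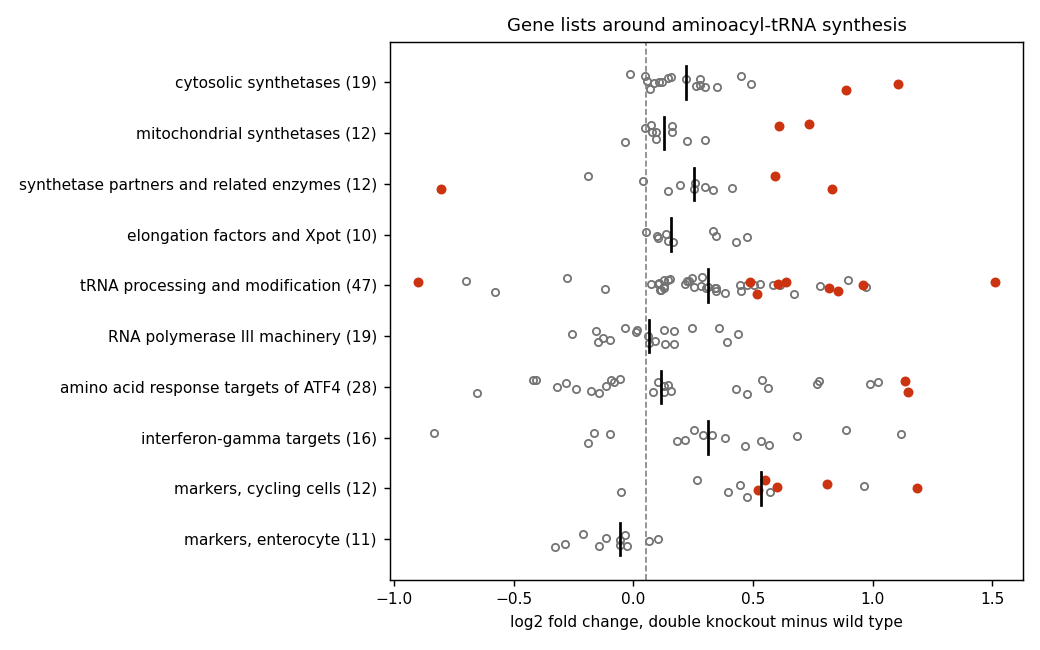
Log2 fold change of each tested gene (open circle, red where it passed), double knockout minus wild type, by gene list with the number of genes in brackets, with the list median as a black bar and the median of all genes tested, 0.05, as a dashed line. The synthetase lists lie almost wholly to the right of 0, the ATF4 targets lie on both sides, and the cycling cell markers have the highest median of the lists drawn, 0.54.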

How the data were processed

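The deposited log2 expression values, 1 per probe set and array, come from GCRMA (version 2.18.0) as run by the authors, according to the submitters' processing notes, which list no settings. The log2 scale was read from the values. GCRMA predicts background from probe sequence, so low levels hold little information. No array was a copy of another: within groups, 62.5% or more of the probe sets differed by over 0.1 between any 2.

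Probe sets were named from the platform annotation, updated through gene identifiers to GRCm38.p6 symbols (34958 of 45101 had 1 symbol, 932 several and 9211 none). After removal of 64 control probe sets, 18013 with a log2 value over 4 on at least 3 arrays were fitted by lmFit and eBayes of limma 3.58.1 (R 4.3.3), with neither trend nor covariate. The two-sided p-values of double knockout minus wild type were adjusted by Benjamini-Hochberg over all 18013, with a threshold of 0.05. Errors are limma standard errors. The number of arrays limits the precision. In simulated data for this comparison the fit recovered 22.4% of changes of 0.5, 59.7% of 1 and 97.0% of 2 (log2), and 13 of its 132 calls were false.

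Members and lists were chosen with earlier results of these data known. Named were all passing members, the 4 with the smallest p and the extremes of each set, members whose probe sets differ, up to 4 passing genes of other lists or else the 2 with the smallest p, and the targeted genes. Of 294 list symbols, 278 matched. Alternatives covered the filter, scaling, floor, variance prior, array weights, mouse number, RNA quality, probe set choice, the chromosomes of the targeted genes and each mouse. Figures were drawn with matplotlib 3.10.9.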

Additional observations from a re-analysis of the deposited data

How the results depend on the processing

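In the main fit 2 cytosolic and 2 mitochondrial genes rose, and these counts varied over the 18 alternatives. In none of the fits did a member of either set fall. Over the same 18, the median log2 fold change stayed positive, between 0.19 and 0.29 for cytosolic genes and between 0.077 and 0.21 for mitochondrial genes. The cytosolic count was 5 with the stricter filter (a log2 value over 6) and 5 with a trend in the variance prior. In both, Kars, Eprs and Iars passed as well. It was 4 with the mean of all probe sets of a gene, where Kars and Eprs did. Over all probe sets, 458 of 18013 were higher in the main fit. They were 710 of 12714 with the stricter filter and 918 of 18013 with the trend. With the mean of probe sets, 466 of 11809 were higher. Vars met the stricter filter through double knockout values alone (wild type 5.68, 5.99 and 5.77). Farsa had 1 wild type value over 6, 6.01 in mouse 1. With array weights 5 members passed, Kars besides the 4 of the main fit, and 578 of all 18013 probe sets were higher. The cytosolic count was 0 with the mouse number as a replicate block and 0 with the 3′ to 5′ covariate, as was the mitochondrial count. In those fits 2 and 5 of all 18013 probe sets were higher and 11 and 12 lower, with fewer residual degrees of freedom. With the block the cytosolic median was 0.29. The labels do not say that a mouse number marks a pair, and mice 1 and 3 of each group, the numbers both groups share, had correlations of their deviations of 0.02 and 0.30. Leaving out 1 mouse gave 0 to 1 cytosolic genes higher and 0 mitochondrial genes, and medians of 0.20 to 0.24 and 0.077 to 0.21. Of all 18013 probe sets, 11 to 196 were higher in those fits, against 458 in the main fit. Cars and Hars2, which did not pass, changed sign: Cars was 0.000837 with array weights, 0.25 with the block and -0.28 to 0.18 without 1 mouse, and Hars2 was 0.15 with the block and -0.20 to 0.15 without 1 mouse. With the 3′ to 5′ covariate they were -0.50 and -0.33, without passing. The cause was not tested. Members below the minimum were not tested in the main fit, and in the simulated data most differences of 0.5 were not recovered with 3 arrays a group.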
